A study of Rattus norvegicus with 28 samples.

Results

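Voltage-gated calcium channel subunits, intracellular calcium release channels, calcium pumps, calmodulins and calmodulin-dependent kinases were examined in the striatum of rats that model an inherited dystonia. The members were all protein-coding rows of the deposited table whose symbol begins with Cacna, Cacnb, Cacng, Ryr and a digit, Itpr1 to Itpr3, Atp2a, Atp2b, Camk, or Calm and a digit. This took 56 genes of the 39538 in the table, of which 22940 are protein coding. They comprised 7 pore subunits of high-voltage and 3 of low-voltage channels, 4 alpha2delta, 4 beta and 8 gamma subunits, 3 ryanodine and 3 IP3 receptors, 3 sarco/endoplasmic reticulum pumps (SERCA) and 4 plasma membrane pumps. The other members were 3 calmodulin genes, 6 genes of the CaM kinase I, IV and kinase kinase group, 4 CaM kinase II genes, and 4 further genes whose name begins with Camk.

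RNA of the striatum of male rats was sequenced in 28 libraries. The wild-type (wt) groups were 8 naive libraries and 6 from rats with a crush of the right sciatic nerve. The transgenic (TG) groups, labelled ΔETorA, were 8 naive and 6 crush libraries. The genotype models DYT-TOR1A dystonia, which is caused by a deletion in TOR1A, the gene of the endoplasmic reticulum ATPase torsinA. The time label is 12 weeks after injury in every group, naive ones included. The sources used here give neither the promoter of the transgene nor the hemisphere sampled, nor whether naive rats had sham surgery. The design asks whether striatal expression differs by genotype, by nerve crush, and by both together. Nothing in the labels ties libraries to separate animals beyond a number of their own, so each p-value reflects only how far these libraries spread.

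Calcium enters neurons through voltage-gated channels, in which a pore subunit is accompanied by alpha2delta and beta subunits that set its surface level and gating. Ryanodine and IP3 receptors release calcium from the endoplasmic reticulum, SERCA pumps return it there, and plasma membrane pumps export it. Calmodulin binds the calcium and activates kinases, of which CaM kinase II is a main component of the postsynaptic density and CaM kinase kinase activates CaM kinases I and IV. The spiny projection neurons, which are the bulk of striatal neurons, use these routes to turn cortical and dopamine input into changes of firing and transcription.

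Values are reads per 1000000 reads assigned to genes (RPM), so they do not allow levels to be ranked between genes of different length. The libraries held 29151455 to 38407359 assigned reads. Tests were made with limma on log2(RPM + 0.5), with adjusted p (Benjamini-Hochberg) over 18222 genes, and a gene was called at an adjusted p under 0.05. All log2 changes are on that scale, which understates the change of low genes. The human TOR1A transcript separated the genotypes, with 102 to 144 RPM in TG libraries and at most 0.972 in wt libraries. All 17 spiny neuron markers were detected in every library, at a summed 7875 to 16090 RPM. The cortical marker Slc17a7, a vesicular glutamate transporter, exceeded 20 RPM in 5 libraries: 3 wt naive (replicates 197, 199 and 202), 1 TG naive (190) and 1 TG crush (220). TG crush replicate 223 had the highest share of mitochondrial reads (18.5%, against 10.4% in the lowest library) and the lowest spiny marker level of its group. Fewer cells of a type and less RNA per cell cannot be told apart in such bulk samples.

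Of the 56 members, 55 reached 0.5 RPM in at least 6 libraries and were tested. Cacna1f, the pore subunit best known from the retina, averaged 0.0633 RPM and was not. Isoforms best known from muscle were also close to the floor: Cacna1s averaged 0.459 RPM, the SERCA gene Atp2a1 0.513 RPM and Cacng6 0.571 RPM. Cacna2d4, an alpha2delta subunit of the retina, averaged 0.410 RPM over the 28 libraries. These genes stood near the 0.103 RPM that 3 reads are worth in the shallowest library.

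Among the pore subunits of high-voltage channels, Cacna1e, the R-type pore, gave the most reads. Its lowest, median and highest libraries were 166.6, 232.0 and 272.2 RPM in wt naive, 252.3, 271.4 and 282.4 in wt crush, 183.1, 220.1 and 244.6 in TG naive, and 170.4, 272.5 and 280.9 in TG crush rats. Both crush groups had medians above both naive groups, and the ranges overlapped within wt and within TG. Cacna1i, a T-type pore that opens at low voltage, had group medians of 155.2 RPM in wt naive, 167.4 in wt crush, 155.0 in TG naive and 151.5 in TG crush rats, with the 4 ranges overlapping. Cacnb3, a cytosolic beta subunit, had medians of 351.1, 355.0, 344.8 and 339.1 RPM in the same order. The beta subunit thus showed little difference in its median between groups, while its libraries ran from 257.7 to 392.9 RPM.

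Cacna2d3, an alpha2delta subunit, was far more variable. It ran from 136.0 to 307.8 RPM in wt naive rats, from 263.1 to 306.9 in wt crush rats, 131.4 to 275.0 in TG naive and 112.5 to 290.1 in TG crush rats. The wt crush libraries were tightly grouped at the upper end, whereas each other group held libraries with less than the lowest wt crush library. Atp2b1, a plasma membrane pump, had the same shape, with 542.6 to 1265 RPM in wt naive, 985.1 to 1324 in wt crush, 611.7 to 1193 in TG naive and 477.2 to 1259 in TG crush rats.

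The release channels and the reticulum pump were well measured. Itpr1, the IP3 receptor typical of neurons, had medians of 1342 RPM in wt naive, 1418 in wt crush, 1319 in TG naive and 1229 in TG crush rats, with a lowest library of 789.8. Ryr2, a ryanodine receptor, had medians of 131.2, 138.2, 128.3 and 140.5 RPM in the same order. Atp2a2, the widely expressed SERCA pump, had medians of 814.4, 975.2, 802.0 and 855.8 RPM. The ranges of all groups overlapped for each of these 3 genes.

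The 3 calmodulin genes encode the same protein from different transcripts, and reads could be shared with their copies. Calm2 had medians of 468.9 RPM in wt naive, 549.4 in wt crush, 503.3 in TG naive and 535.8 in TG crush rats, and Calm3 had 427.7, 428.6, 430.2 and 420.0 in the same order. Calm3 had a narrow within-group spread (SD of log2 values 0.10), while Calm2 spread from 430.3 to 658.5 RPM within TG crush rats.

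Among the CaM kinase II genes, the neuronal subunits Camk2b and Camk2a gave the most reads, without correction for length. Camk2b had medians of 1075 RPM in wt naive, 1272 in wt crush, 1103 in TG naive and 1217 in TG crush rats. Camk2a had medians of 879.9, 824.6, 893.2 and 875.4 RPM in that order. Camk2d, a more widely expressed subunit, had a highest library of 132.7 RPM in wt naive against a median of 44.5 there, and its wt crush libraries lay between 34.7 and 50.8. Among the remaining kinases, Camk4, a nuclear CaM kinase, had medians of 325.5, 369.0, 310.7 and 350.5 RPM. Camkv, a kinase-like protein of synapses, had medians of 612.1, 693.4, 590.7 and 656.5 RPM.

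**Figure D1:**
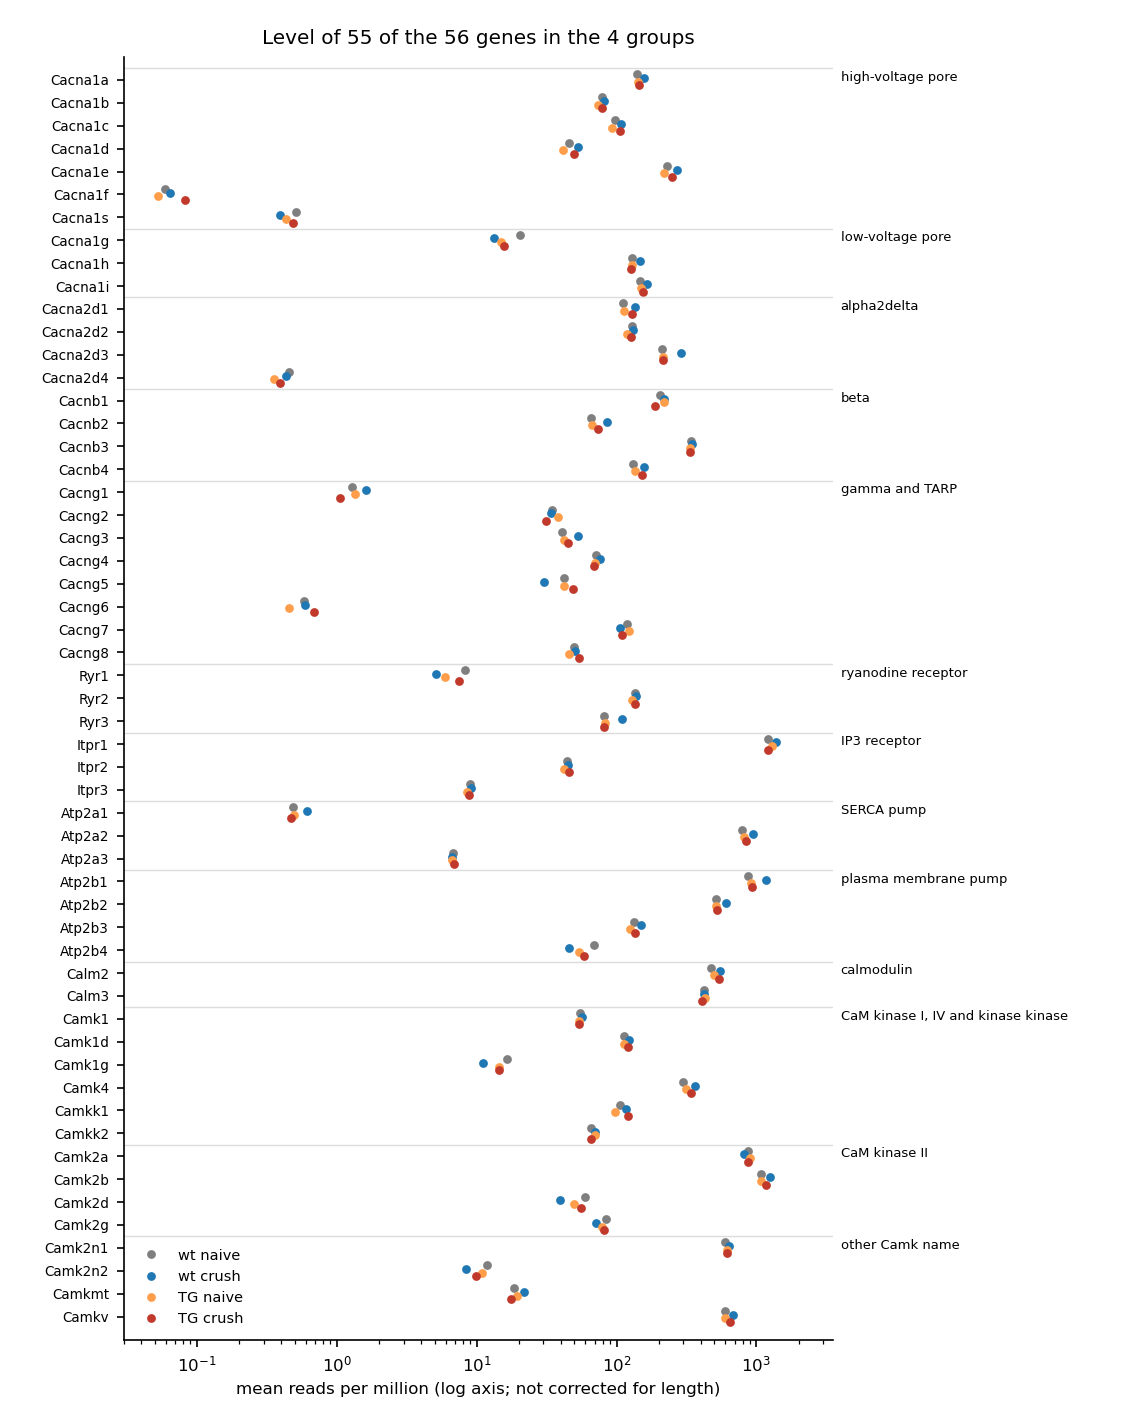
Mean level of 55 of the 56 members in each group, in RPM on a log axis and by family; each point is the mean of 1 group of 8 naive or 6 crush libraries, and no error is drawn. Points of 1 gene lie close together for most members, Cacna1f is lowest, and the wt crush means of Cacna2d3 (286.8 RPM), Atp2b1 (1166) and Ryr3 (109.8) stand to the right of the other groups.

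After nerve crush, averaged over both genotypes, 3 members were called. Camkk1 and Cacna1d were higher and Cacng7 was lower after crush, so 2 of 55 members were called higher and 1 lower, against 11.4% of all tested genes called in either direction (3.03% higher and 8.42% lower). Camkk1 encodes CaM kinase kinase alpha, which phosphorylates CaM kinases I and IV. Cacna1d encodes the L-type pore Cav1.3, which opens at fairly negative voltages. Cacng7 belongs to the gamma subunits that act as AMPA receptor regulators (TARPs). At an unadjusted p under 0.05 there were 15 members, against 28.5% of genes.

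The starts of the promoters of called members are shown to place them beside their changes, except for Cacng7, for which no promoter was matched. They are the 250 bases before the transcription start in RefSeq, build GRCr8, at chr10:58135685-58135934 (plus strand) for Camkk1, chr16:5527550-5527799 (minus strand) for Cacna1d and chr7:111577758-111578007 (minus strand) for Cacng2, which was called in TG rats. Capitals mark TGACG, the core of the cAMP response element, a motif through which CREB, a target of the CaM kinases, acts.
Camkk1: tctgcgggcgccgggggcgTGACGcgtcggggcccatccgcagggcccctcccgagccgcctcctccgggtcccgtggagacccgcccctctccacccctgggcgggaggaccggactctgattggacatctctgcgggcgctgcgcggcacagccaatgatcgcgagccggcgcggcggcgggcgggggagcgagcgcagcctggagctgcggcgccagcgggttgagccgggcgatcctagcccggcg
Cacna1d: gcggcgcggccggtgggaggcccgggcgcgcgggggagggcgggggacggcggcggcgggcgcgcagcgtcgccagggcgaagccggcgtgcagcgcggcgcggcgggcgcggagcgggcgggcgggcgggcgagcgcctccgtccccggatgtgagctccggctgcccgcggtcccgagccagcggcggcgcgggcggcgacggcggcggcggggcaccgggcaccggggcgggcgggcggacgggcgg
Cacng2: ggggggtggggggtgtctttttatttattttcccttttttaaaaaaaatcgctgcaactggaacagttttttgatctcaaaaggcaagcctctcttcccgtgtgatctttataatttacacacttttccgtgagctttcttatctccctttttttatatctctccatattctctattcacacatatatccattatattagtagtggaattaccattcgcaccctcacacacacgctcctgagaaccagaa
The Camkk1 sequence held TGACG once, starting 231 bases before the transcription start, and the others held none. Their GC content differed widely, at 77.6% for Camkk1, 88.8% for Cacna1d and 38.4% for Cacng2. Over both strands, TGACG was in 8 of the 40 member promoters in RefSeq (20%) and in 19.0% of 27457 promoters. The full element TGACGTCA, which contains TGACG on both strands, was in 0 of 40 and 1.70%, and the E-box CACGTG in 1 of 40 (2.50%, Itpr3) and 5.79%. These are matches of letters in a window, and a missing match says only that the letters are not there.

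Camkk1 (chr10:59585023-59608180, Rnor_6.0) had lowest, median and highest libraries of 91.3, 104.3 and 119.3 RPM in wt naive, 113.2, 117.1 and 123.0 in wt crush, 89.3, 93.6 and 113.7 in TG naive, and 83.5, 130.0 and 134.0 in TG crush rats. In TG rats every crush library but replicate 223, at 83.5 RPM, lay above every naive library, and in wt rats the ranges overlapped. The mean went from 105.7 ± 10.03 RPM (SD, n = 8) without to 117.2 ± 3.60 (SD, n = 6) with crush in wt rats, and from 96.8 ± 8.88 (SD, n = 8) to 121.4 ± 19.2 (SD, n = 6) in TG rats. The log2 change averaged over genotypes was 0.23 (SE 0.06, limma adjusted p = 0.0116). It was called under each of the 11 alternative settings and with each library left out in turn, with a log2 change of 0.22 to 0.29 throughout.

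Cacna1d (chr16:6110294-6405022, Rnor_6.0) had 36.9, 48.4 and 50.8 RPM as lowest, median and highest in wt naive, 46.4, 54.4 and 56.4 in wt crush, 34.4, 42.3 and 47.3 in TG naive, and 33.5, 51.8 and 57.7 in TG crush rats. The ranges overlapped in both genotypes, and replicate 223 was again the lowest TG crush library. The log2 change averaged over genotypes was 0.23 (SE 0.07, limma adjusted p = 0.0283). The call was lost with the spiny marker mean as a covariate (0.18, adjusted p = 0.0792), without the 5 libraries over 20 RPM of Slc17a7 (adjusted p = 0.0763), and without TG crush replicate 214, 219 or 222 (adjusted p up to 0.0584).

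Cacng7 (chr1:64374547-64405380, Rnor_6.0) had 101.5, 120.3 and 135.7 RPM as lowest, median and highest in wt naive, 93.4, 108.4 and 112.1 in wt crush, 105.1, 124.9 and 134.2 in TG naive, and 100.6, 111.4 and 117.4 in TG crush rats. The crush medians were below the naive ones in both genotypes, with overlapping ranges. The log2 change was -0.16 (SE 0.04, limma adjusted p = 0.0151), and it was -0.13 without a call (adjusted p = 0.0992) when the 5 Slc17a7 libraries were left out. An opposite-strand transcript of 2.11 RPM overlaps the gene, and whether counting used the strand was not given in the sources used here.

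Between the TG groups, 2 members were called after crush in the fit of all 4 groups, with Camkk1 higher and Cacng2 lower. These were 1 of 55 members higher and 1 lower, close to the share of all tested genes called (3.08%, with 1.08% higher and 2% lower). At an unadjusted p under 0.05 there were 7 members, against 19.3% of genes. Cacng2 encodes stargazin, the TARP that brings AMPA receptors to the synapse. The log2 change of Camkk1 was 0.31 (SE 0.08, limma adjusted p = 0.0324), and Cacna1d came next, at 0.25 without a call (adjusted p = 0.137). Cacng2 (chr7:119228112-119353332, Rnor_6.0) had 32.6, 38.2 and 43.4 RPM as lowest, median and highest in TG naive and 22.9, 32.4 and 34.8 in TG crush rats, against 29.7, 34.6 and 37.6 in wt naive and 31.4, 34.1 and 36.1 in wt crush rats. The TG crush libraries lay at or below the lower part of the TG naive range, and the wt ranges overlapped. Its log2 change in TG rats was -0.29 (SE 0.08, limma adjusted p = 0.0332), and -0.01 (adjusted p = 0.970) in wt rats, a difference that did not itself pass the test (interaction -0.29, adjusted p = 0.593).

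Both calls in TG rats depended on single libraries and settings. The Camkk1 call was lost without TG naive 189 or 191 or TG crush 214, 219, 220 or 222, and the Cacng2 call without TG naive 189, 190, 191 or 193 or TG crush 214 or 222, with adjusted p of at most 0.0998 and 0.0785. Both were lost with no filter (adjusted p = 0.0544 and 0.0542), in a fit of the TG groups alone (0.141 and 0.150) and without the Slc17a7 libraries (0.0638 and 0.0977).

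**Figure D2:**
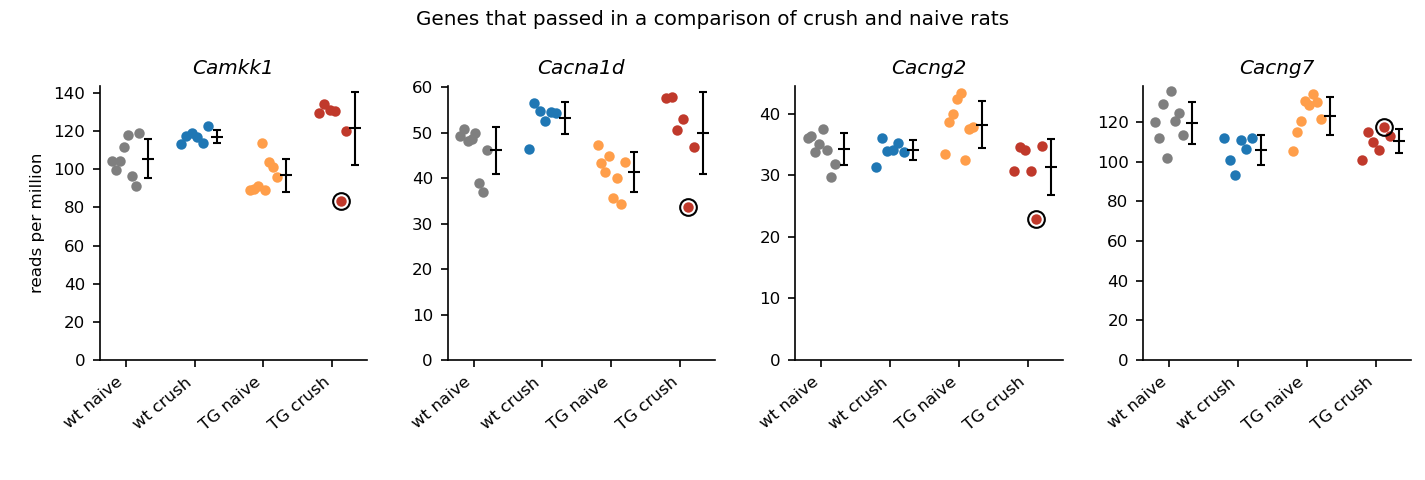
RPM of the 4 called members in each library by group; points are libraries, bars the mean ± SD, the y axis starts at 0, and the ringed point is TG crush replicate 223. Camkk1 is high in the other TG crush libraries, from 119.9 to 134.0 RPM, while the ringed library is at 83.5.

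TG crush replicate 223 carried much of the scatter and had the lowest mean log2 level of the spiny markers in its group (8.38). More members were called without it. In the average over genotypes 17 of 55 members were then called, 16 higher and 1 lower, when 20.4% of all genes were called (8.22% higher). Those higher included 4 of the 6 tested high-voltage pores, Cacna1a, Cacna1c, Cacna1d and Cacna1e, with log2 changes of 0.14, 0.22, 0.29 and 0.26. They also included Cacna2d1 (0.31), the beta subunits Cacnb2 (0.32) and Cacnb4 (0.25), the TARP Cacng3 (0.31), the pumps Atp2a2 (0.19), Atp2b2 (0.20) and Atp2b3 (0.18), and Calm2 (0.20). The kinase group was represented by Camkk1 (0.29), Camk4 (0.27), Camk2b (0.20) and Camkv (0.18). Cacng7 was the member called lower. All of those higher but Camkk1, Cacna1d and Atp2b3 also had a called positive slope on the spiny markers, described below. Cacng7 had a called negative slope. With the same library left out, 6 members were called in TG rats, when 6.68% of all genes were (2.66% higher): Camkk1 (0.42), Cacna1d (0.36), Cacng8 (0.31), Cacna1c (0.29) and Cacna1e (0.29) were higher and Cacng2 (-0.21) lower. The setting that weights libraries by their scatter gave this replicate a weight of 0.271 and called 17 members in the averaged comparison (25.1% of genes) and 6 in TG rats (9.62%). The averaged comparison called 7 members without wt naive 196 (14.8% of genes), 6 without TG naive 187 (12.6%) or TG crush 226 (14.2%), and 5 without wt naive 198 (10.7%) or 202 (11.9%) or TG naive 188 (15.2%). Replicate 196 had the highest spiny marker level of the wt naive libraries (9.35). The part of the spiny marker level in these shifts was not tested.

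In wt rats no member passed the test after crush (0 of 55, against 0.159% of all tested genes). At an unadjusted p under 0.05 there were 21 of 55 members, against 20.8% of genes, and limma-voom on whole reads gave 0 calls and 21 members at that p. Without wt naive 199 the 21 became 13 (17.6% of genes), and without wt naive 201 they became 11 (14.3%). The lowest p belonged to Cacng3, a TARP, with 30.8, 38.9 and 55.2 RPM as lowest, median and highest in wt naive and 47.1, 54.5 and 56.8 in wt crush rats (log2 change 0.41, SE 0.13, limma adjusted p = 0.125). Cacng7 followed with -0.17 (adjusted p = 0.148) and Atp2a2 with 0.26 (adjusted p = 0.151). The ranges of Cacng3 overlapped between 47.1 and 55.2 RPM, the upper part of the wt naive range. The log2 change was above 0 in 41 of the 55 members (74.5%, against 41.2% of all genes). Its median over the members was 0.12 against -0.03 over all genes. Without wt naive replicate 196, Cacng3 (0.48) and Camkmt (0.31), a calmodulin methyltransferase, were called, when 2.8% of all genes were. With library weights 6 members were called (7.88% of genes).

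The spiny neuron marker level was also higher on average in wt crush than in wt naive libraries, with overlapping ranges. The median log2 change of the 17 markers was 0.39 in wt rats, with 0 of 17 called, and they summed to between 7875 and 15772 RPM in wt naive libraries and between 13924 and 16090 in wt crush ones. The values in TG rats were 8728 to 14765 RPM in naive and 8447 to 15902 in crush libraries, with a median change of -0.02. With that marker mean as a covariate, 2 of 55 members rather than 21 had an unadjusted p under 0.05 in wt rats (5.32% of genes), and without the 5 Slc17a7 libraries 4 had (11.3%). The covariate left 4 members called in TG rats (6.91% of genes) and the same 4 in the average over genotypes (6.69%), with Camkk1 higher and Cacng2, Cacng7 and Cacnb1 lower in both. Of the 8 astrocyte markers 2 were called lower in the average over genotypes, with a summed level of 2883 to 4423 RPM in wt naive, 2993 to 3196 in wt crush, 3233 to 3916 in TG naive and 3021 to 4254 in TG crush libraries. Microglial markers had 4 of 8 called lower there and endothelial markers 2 of 5, against 8.42% of all tested genes. The part of these cell type markers in the changes of the members was not tested.

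**Figure D3:**
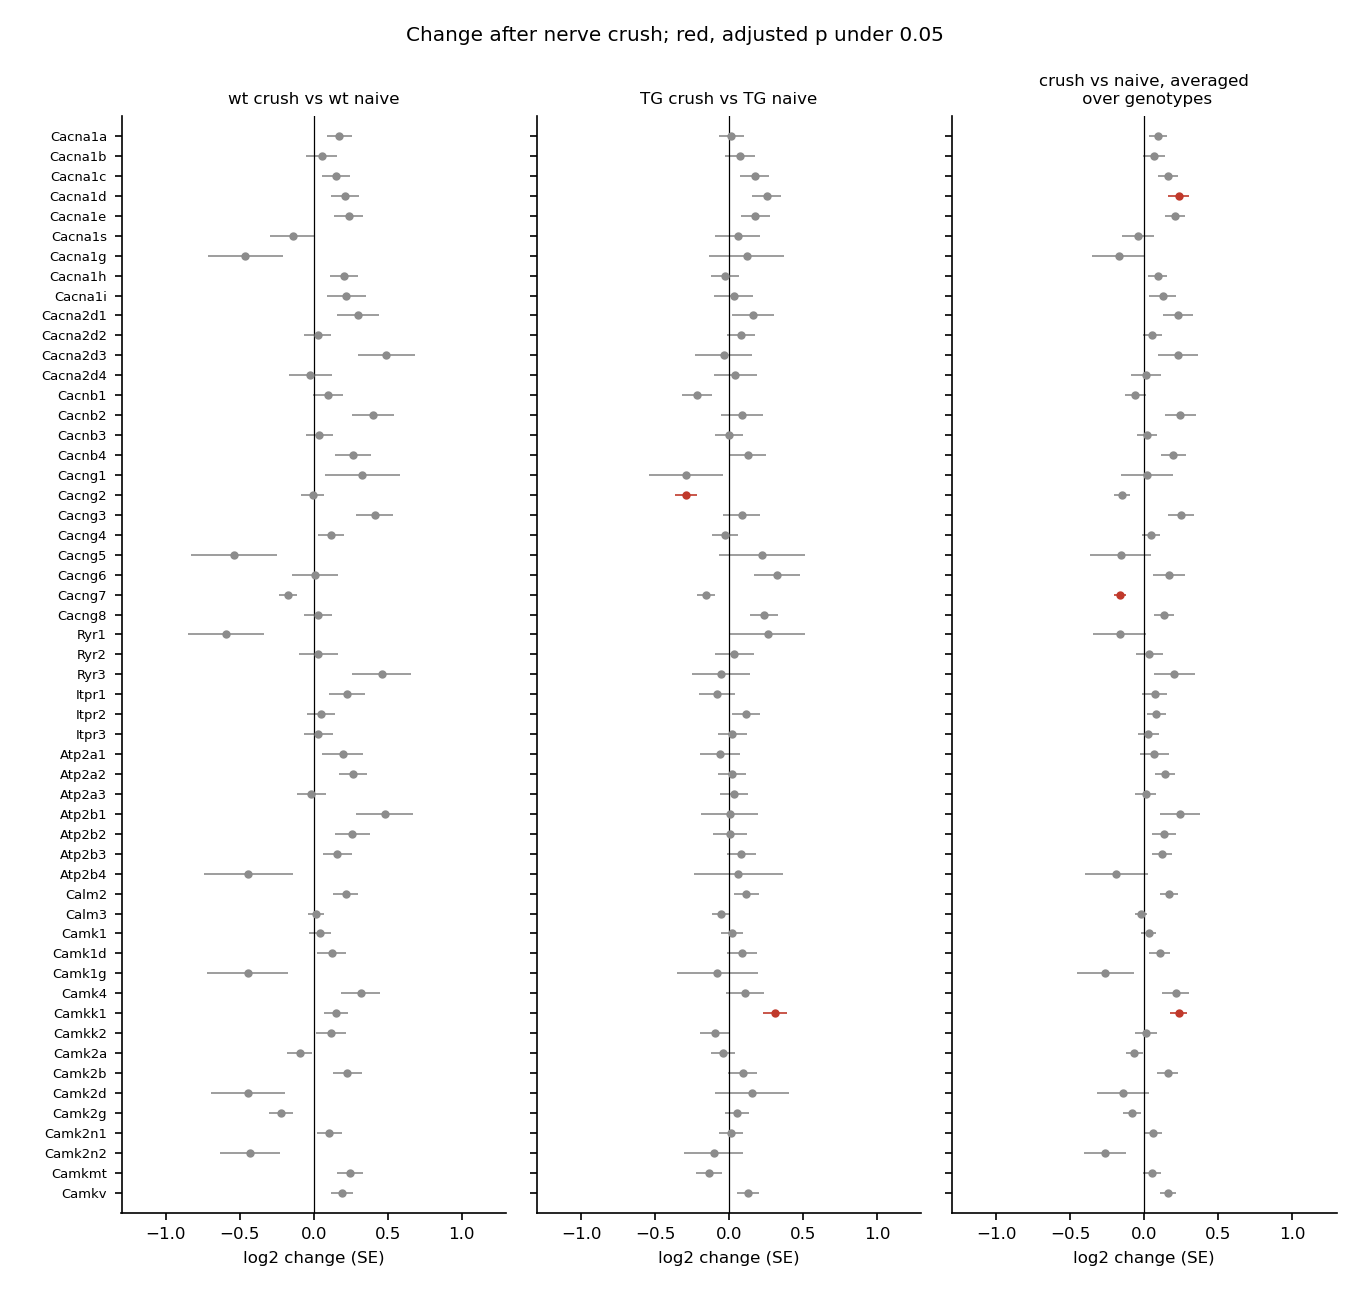
Log2 change after nerve crush of 54 of the 55 tested members in wt rats, in TG rats and averaged over genotypes, with bars of 1 standard error and called members in red. Over all 55 tested members 41 were above 0 in wt rats and 38 in TG rats (74.5% and 69.1%, against 41.2% and 46.3% of all tested genes). Camkk1 (0.31) and Cacng2 (-0.29) are red in TG rats.

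No member passed the test for genotype. In naive rats 0 of 55 members were called (0.0329% of all tested genes), in crush rats 0 of 55 (0.00549%), and in the average over both arms 0 of 55 (0.0384%). limma-voom on whole reads also called 0 in each. At an unadjusted p under 0.05 there were 1, 6 and 0 members, against 4.98%, 8.06% and 5.09% of genes. In naive rats 52 of the 55 members had a log2 difference of less than 0.2 in either direction, with a median standard error of 0.09.

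The lowest p in naive rats belonged to Cacng2, with a log2 change of 0.15 in TG against wt (limma adjusted p = 0.980), followed by Cacna1d at -0.15 and Camkk1 at -0.13 (adjusted p = 0.999 for both). In crush rats it was Camkmt at -0.31 (adjusted p = 0.572), with 19.99, 21.7 and 23.2 RPM as lowest, median and highest in wt crush and 14.1, 17.1 and 21.4 in TG crush rats. Those ranges overlapped. Cacna2d3 (-0.48) and Ryr3 (-0.47), a ryanodine receptor, followed with adjusted p of 0.606 and 0.607. Ryr3 had 83.5, 108.6 and 134.0 RPM in wt crush and 40.3, 81.0 and 114.4 in TG crush rats, also overlapping. In the average over both arms the lowest p were those of Cacna1d (-0.13), Camkmt (-0.12) and the plasma membrane pump Atp2b3 (-0.13), with an adjusted p of 0.956 for each.

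No member passed the test for a change after crush that differs between genotypes. In the interaction 0 of 55 members were called, against 0.00549% of all tested genes, and 5 members had an unadjusted p under 0.05, against 7.49% of genes. limma-voom also called 0. The lowest p belonged to Camkmt (-0.38, limma adjusted p = 0.529), whose median went from 17.7 to 21.7 RPM with crush in wt rats and from 19.1 to 17.1 in TG rats. Cacng2 (-0.29, adjusted p = 0.593) and Camk2g (0.28, adjusted p = 0.613), a CaM kinase II subunit, came next. For Camkk1 the interaction was 0.16 (SE 0.12, adjusted p = 0.736).

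Within the groups, many members moved with the spiny neuron markers, in a fit added after the data were seen. The fit gave each gene 1 slope on the mean log2 level of the 17 markers, with the 4 groups as terms, so a slope of 1 means that the gene changed in proportion to the markers. Of 55 members 27 had a positive slope that was called, against 11.4% of all tested genes, and 9 a negative one, against 21.2%. The RPM of a library sum to 1000000, so a larger share of some genes lowers that of others. Without the 2 libraries farthest from their group mean the counts were 25 and 10 (8.52% and 18.8% of genes), and without the Slc17a7 libraries 31 and 8 (12.6% and 18.2%).

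The positive slopes covered all classes of the channel complex. All 4 beta subunits were called, from 0.39 for Cacnb3 to 0.88 (SE 0.07) for Cacnb2, together with Cacna2d1 and Cacna2d3 of the alpha2delta subunits. Cacna2d3 had a slope of 1.21 (SE 0.06). Of the low-voltage pores, Cacna1i (0.77) and Cacna1h (0.57) were positive and Cacna1g was negative (-1.06). Of the 6 tested high-voltage pores, Cacna1a, Cacna1c and Cacna1e were called, with slopes of 0.47, 0.41 and 0.31. Cacna1d, with 0.27 (adjusted p = 0.0502), was not. The TARPs Cacng3 (0.65) and Cacng4 (0.49) were positive, as was Cacng1 at its low level of 1.32 RPM, while Cacng7 was negative (-0.26).

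The same split ran through the stores, pumps and kinases. Ryr3 (1.18), Itpr1 (0.68), Atp2a2 (0.52), Atp2b1 (1.201) and Atp2b2 (0.67) were positive. Of the same families Ryr1 (-0.99), Itpr2 (-0.41) and Atp2b4 (-1.24) were negative. Among the kinases Camk4 (0.74), Camkk2 (0.53) and Camk2b (0.50) were positive, and Camk2d (-1.34), Camk1g (-1.12) and Camk2g (-0.42) were negative. Camk2n1, an inhibitor of CaM kinase II, Camkmt and Camkv were positive at 0.34 to 0.37, and Camk2n2 was negative (-0.98). Atp2a1 was positive (0.43) at its level near the floor, where reads of the overlapping Rabep2 could be included. Calm2 had a called slope (0.40), and Calm3 (0.07, adjusted p = 0.462) was not called. Camk2a, at 0.02 (SE 0.10, adjusted p = 0.920), and Camkk1, at 0.09 (SE 0.10, adjusted p = 0.539), did not move detectably with the markers.

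**Figure D4:**
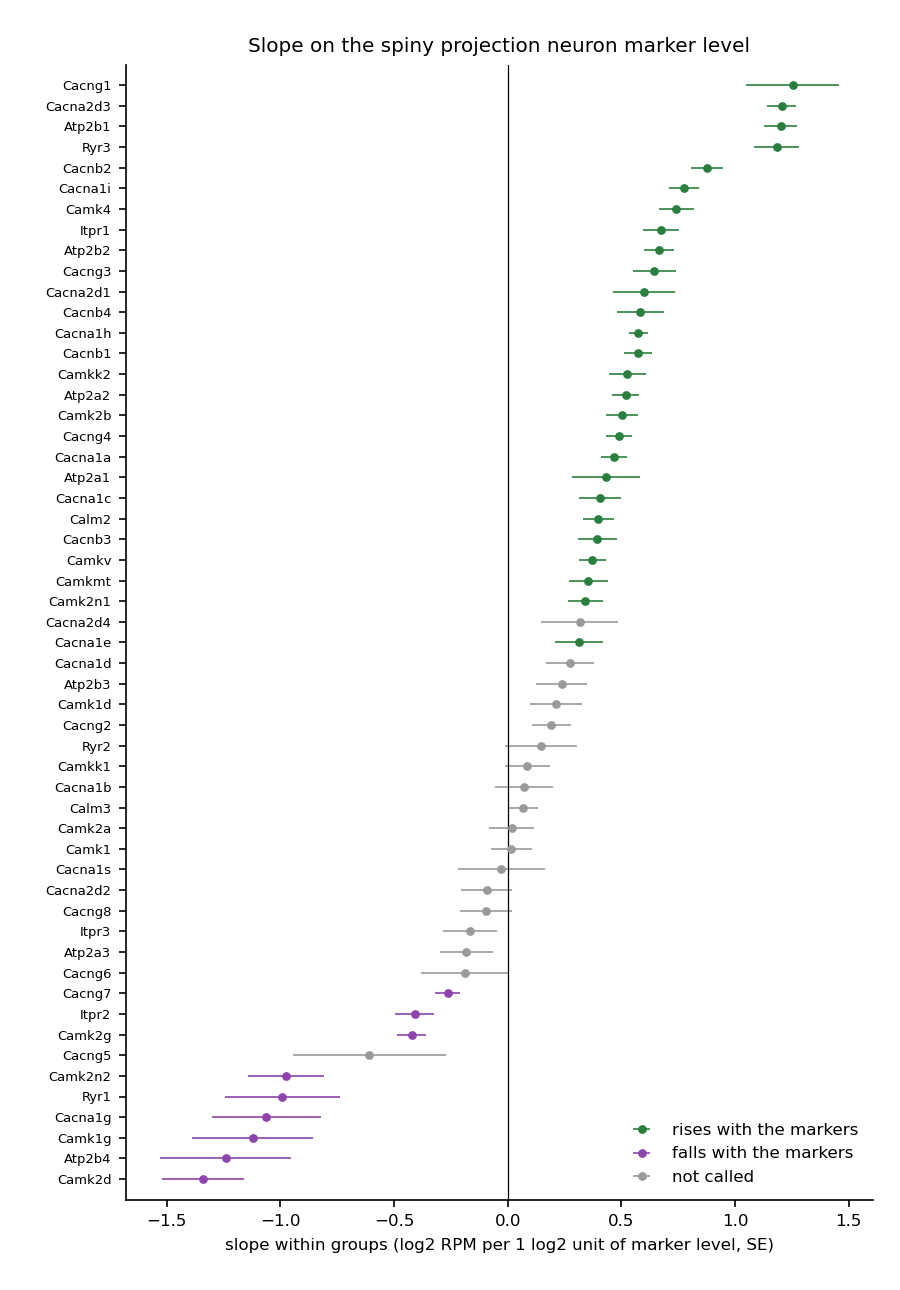
Slope of 54 of the 55 tested members on the mean log2 level of 17 spiny neuron markers within groups (log2 units per log2 unit), with bars of 1 standard error; green and purple mark called positive and negative slopes, grey the rest. Cacna2d3 (1.21) and Ryr3 (1.18) are near the top, and Camk2d (-1.34) and Atp2b4 (-1.24) are at the bottom.

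**Figure D5:**
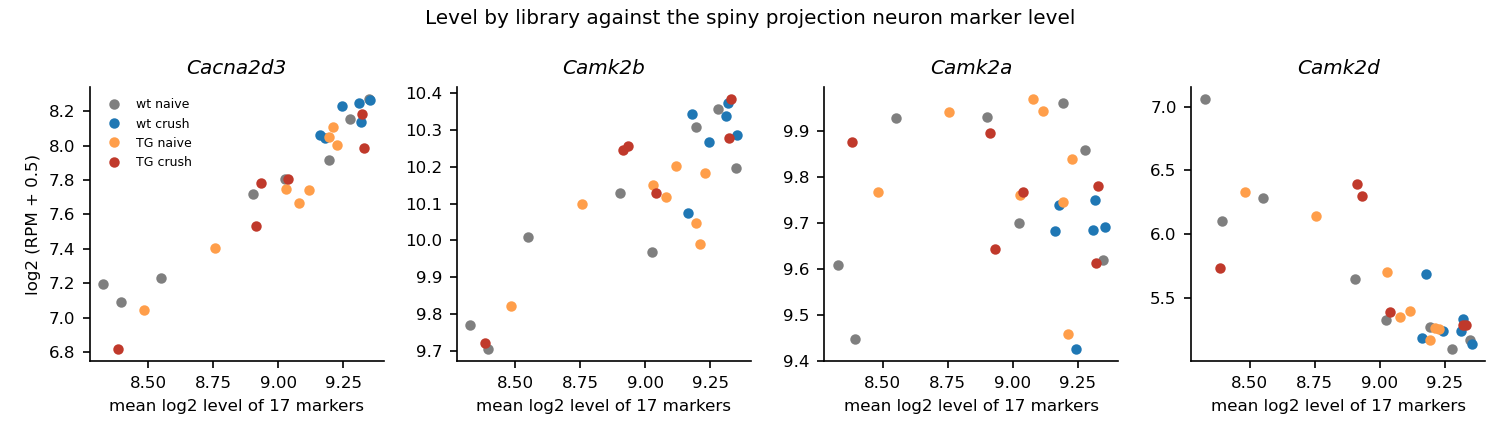
Log2(RPM + 0.5) of Cacna2d3, Camk2b, Camk2a and Camk2d in each library against the mean log2 level of these 17 markers of spiny neurons, coloured by group; the y axes differ between panels and do not start at 0. Points rise with the marker level for Cacna2d3 and Camk2b and fall for Camk2d, and Camk2a has a slope of 0.02.

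Slopes on other marker lists came from the same libraries, in which the marker levels were not independent. Within groups the spiny marker level correlated at -0.45 with that of the 7 cortical markers and at -0.84 with that of the 8 astrocyte markers (Pearson, 28 libraries, as a description), so slopes on these lists are not separate observations. On the cortical markers 9 members were positive (4.92% of all tested genes) and 1 negative (0.971%). The positive ones were Atp2b4 (0.81), Cacna1g (0.67), Camk2d (0.56), Camk1g (0.56), Cacng5 (0.55), Ryr1 (0.49), Camk2n2 (0.43), Cacng8 (0.18) and Camk1 (0.13), and Cacna1i (-0.23) was the negative one. Camk2n2, an inhibitor of CaM kinase II, shares its locus with the opposite-strand gene Ece2, at 45.7 RPM, against 10.5 RPM for Camk2n2 itself. Without the 2 libraries farthest from their group mean 6 members were positive and 0 negative (2.46% and 0.439% of genes), and without the Slc17a7 libraries 10 and 3 (6.99% and 1.28%). On the astrocyte markers 6 members were positive (21% of genes), Camk2d, Ryr1, Camk2n2, Itpr2, Camk2g and Cacng7, and 29 were negative (13.2%). Itpr2, the IP3 receptor known from astrocytes, had a slope of 1.10 there.

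The members had a wider spread within groups than the median gene. Among genes of at least 10 RPM, the median within-group SD of log2 values was 0.19 over 47 members and 0.13 over 10553 genes. Among all 55 tested members the widest were Atp2b4 (0.61), Cacng5 (0.58), Camk1g (0.55), Ryr1 (0.51), Cacna1g (0.51) and Camk2d (0.51). Atp2b4, a plasma membrane pump, ran from 35.1 to 158.8 RPM in wt naive rats alone, and from 32.6 to 63.6 in wt crush rats. All of these 6 but Cacng5 had a called negative slope on the spiny markers. Of the members next in spread, Cacng1 (0.50), Ryr3 (0.40), Atp2b1 (0.38) and Cacna2d3 (0.38) had called positive slopes. Camk2n2 (0.40) had a called negative one, so wide spread went with slopes of both signs.

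The members are long genes. Their median span, introns included, was 75.3 kb against 18.6 kb over all tested genes, and Cacna2d3 (chr16:4871348-5795825, Rnor_6.0) covers 924.5 kb. The deposited RPKM divide by this span, and 24 of the 56 members fall below 0.5 RPKM in so many libraries that a filter at that level would leave them out, Cacna1d and Cacng2 among them.

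Other calcium-handling genes were counted from a separate list of 87 genes, of which 81 were tested. In the average over genotypes 5 were higher after crush (3.03% of all tested genes were) and 5 lower (8.42%), and 71 were not called. Those higher included the mitochondrial uniporter pore Mcu (0.18, SE 0.04, limma adjusted p = 0.00934), the exchanger Slc24a4 (0.39), the calcineurin catalytic subunit Ppp3cb (0.21) and the channel Trpc1 (0.15). The reticulum calcium binders Calr (-0.17) and Hsp90b1 (-0.16) were lower, as were Hpcal4 (-0.30), a neuronal calcium sensor, S100b (-0.23), a glial calcium-binding protein that is also an astrocyte gene, and Nfatc1 (-0.20), a factor activated by calcineurin. In TG rats Calr (-0.25) and Hsp90b1 (-0.26) were lower and none was higher, against 2% and 1.08% of all tested genes. In the other 5 comparisons 0 of 81 were called.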

How the data were processed

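The authors made 28 striatal libraries with a stranded mRNA kit and read 75 nt from 1 end in 2 runs, per the labels' protocols; how libraries were divided between runs is unknown here. STAR 2.6.1a, Rnor_6.0, featureCounts of Subread 1.6.3 and DESeq2 1.22.2 are named in the submitters' processing notes, and the sources used here do not say whether counting used the strand. The authors deposited 1 table of RPKM values with decimal commas for 39538 genes. The length behind them was the gene span with introns in every gene. RPKM times span in kilobases gave RPM summing to 1000000 in each library, and 100% of the values above 0 were whole reads within 0.02.

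The main test was limma 3.58.1 (R 4.3.3; moderated, with a mean trend) on log2(RPM + 0.5) in 1 fit of the 4 groups, over 18222 genes with at least 0.5 RPM in at least 6 libraries, Benjamini-Hochberg adjusted. RPM were used because RPKM per span remove long members. The fit was also run on simulated reads with known changes. Their noise was drawn separately for each gene and library, so it did not cover shifts shared by many genes of a library. Members, gene lists, marker lists and the limit of 20 RPM of Slc17a7 were chosen with earlier results of these data known. Members were named if called in any of the 7 comparisons, if of highest mean RPM in their family, or if among the 3 of lowest p in a comparison; others appear in family counts or were chosen after their values were seen, as were the members described for spread and slopes. A few genes that the rule or the lists hold count in the totals but are not reported here.

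Alternatives were pseudocounts of 0.1 and 2, no filter, at least 5 RPM in 14 libraries, median-of-ratios and quantile scaling, the RPKM with their own filter, limma-voom on whole reads, compared groups alone, array weights (a weight per library from its scatter), the spiny marker mean as a covariate, leaving out the 5 Slc17a7 libraries, and leaving out each library in turn. The slopes on marker lists, with the groups as terms, were added after the data were seen. The marker lists covered spiny projection neurons, cortical excitatory neurons, interneurons, astrocytes, oligodendrocytes, microglia, endothelium, choroid plexus, pituitary and blood. Of these, spiny projection neuron, cortical excitatory neuron, interneuron, oligodendrocyte, choroid plexus and blood markers had 0 calls in the 7 comparisons. In the average over genotypes 2 of 4 pituitary markers were called higher after crush, against 3.03% of all tested genes. Promoters were matched by gene ID for 40 of 56 members. Plots were made in Python 3.11.15 (matplotlib 3.10.9).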

Additional observations from a re-analysis of the deposited data

Results flagged for a closer look

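In 3 of 80 groups of libraries of 20 named members, 1 library lay far from the rest. Chance alone gives about 1 in 20, so the count was no higher than chance gives. Camkk1 was at 83.5 RPM in TG crush replicate 223, and the next library of that group was at 119.9. Cacng2 was at 22.9 RPM in the same library, with the next at 30.8. Camkmt was at 25.1 RPM in wt naive replicate 196, above the next at 18.6.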

How the results depend on the processing

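The main test called 0 members after crush in wt rats and 2 in TG rats (0.159% and 3.08% of all tested genes). In the average over genotypes it called 3 (11.4% of genes). The counts over all genes moved between settings too and are given in brackets. In wt rats array weights called 6 (7.88% of genes). In TG rats no filter called 0 (138 genes higher and 233 lower of 30864), and RPKM per gene span called 1 (121 and 371 of 11374). The compared groups alone called 0 (41 and 82 of 18222), and leaving out the Slc17a7 libraries called 0 (66 and 115 of 18222). Array weights called 6 in TG rats (9.62% of genes). The spiny marker mean as a covariate called 4 there (6.91% of genes), 1 higher and 3 lower: Camkk1, Cacng2, Cacng7 and Cacnb1. In the average, at least 5 RPM in 14 libraries, median-of-ratios and quantile scaling each called 5. All genes called higher and lower were then 570 and 1385 of 12697, 1021 and 1140 of 18245, and 942 and 1097 of 18222. Array weights called 17 in the average (25.1% of genes). The spiny marker mean as a covariate called 4 (6.69% of genes), the same genes and directions as in TG rats. The main test had 2 higher and 1 lower. Leaving out the Slc17a7 libraries called 1, Camkk1 (138 genes higher and 417 lower of 18222). Leaving out each library in turn gave 0 to 2 members in wt rats, 0 to 6 in TG rats and 2 to 17 in the average; in TG rats the count was 0 without TG naive 189 or 191 or TG crush 214 or 222, 1 without TG naive 190 or 193 or TG crush 219 or 220, and 6 without TG crush 223. All genes called higher and lower in TG rats were 112 and 242 without TG naive 189, and 110 and 196 without 191. They were 141 and 218 without 190 and 106 and 180 without 193, against 197 and 365 in the main test. Without TG crush 223 the share was 6.68% of genes. The comparisons other than these 3 crush ones stayed at 0 members under every alternative and with every library left out. The cause of these shifts was not tested. Of the 21 log2 changes followed (members called or of lowest p in a comparison) 0 changed sign. The printed slopes on spiny markers of Camkk1 and Calm3, neither called, went to -0.05 and -0.0078 without the 2 libraries farthest from their group mean. No paired analysis was possible because the groups share no replicate numbers. The RPKM filter leaves 24 of 56 members untested, Cacna1d among them. A count of 0 allows up to 0.103 RPM, for counting error only, so the lowest isoforms are known only roughly.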
